A study of Mus musculus with 53 samples.

Results

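Ethanol-dependent mice were compared with non-dependent mice in the medial prefrontal cortex (mPFC) after their microglia had been depleted with PLX5622. The comparison takes every mPFC library whose label gives the PLX5622 chow, 18 of the 53 libraries of the series: 9 from dependent and 9 from non-dependent mice. All were C57BL6/J mice at postnatal day 119. The dependent mice received PLX5622 chow at 1200 ppm for 28 days before the ethanol phase, in which chronic intermittent ethanol exposure was paired with a choice of 2 bottles, 1 of them 15% ethanol, over 4 weeks. The non-dependent mice carry the same chow, strain and age in their labels, so both groups were treated with PLX5622. The treatment protocol in the labels is written in the same words for both, and the sources used here do not give what the non-dependent mice drank or inhaled. Tissue was taken 24 h after the last exposure. Used beside these are the control-chow mPFC libraries (9 dependent, 7 non-dependent) and the PLX5622 libraries of the central nucleus of the amygdala, CeA (4 dependent, 4 non-dependent). Each library holds the RNA of 1 tissue sample of 1 numbered mouse. Number 16 stands on a PLX5622 non-dependent library in mPFC and on a control-chow non-dependent library in CeA, so these 2 labels disagree if they name 1 animal, and they were not paired. Whether mice shared litters or cages is not given, so p-values measure the spread between these mice.

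The medial prefrontal cortex sends glutamatergic output to the striatum, amygdala and brainstem and is studied in ethanol dependence for its part in control over drinking. Chronic intermittent ethanol with access to a drinking bottle is a mouse model in which repeated intoxication and withdrawal are used to produce escalated intake, so tissue at 24 h comes from early withdrawal. Microglia, the resident macrophages of the brain, need signalling through the receptor CSF1R to survive. PLX5622 inhibits CSF1R, and feeding it removes most of these cells. Immediate early genes are transcribed within minutes of neuronal firing or a growth factor signal, without new protein synthesis, through factors such as CREB and SRF that are already bound near their promoters.

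The label of depleted microglia held in both groups. Csf1r, the gene of the targeted receptor, had 0 to 4.80 CPM (counts per 1000000 counts in genes, on scaled library sizes; median 1.57) in the 9 dependent libraries and 0 to 2.75 CPM (median 1.597) in the 9 non-dependent ones, against 37.2 to 45.5 CPM in dependent and 32.0 to 47.9 CPM in non-dependent mice on control chow. The purinergic receptor gene P2ry12 ranged over 1.37 to 4.80 CPM in dependent and 1.04 to 4.20 CPM in non-dependent PLX5622 libraries. Tmem119, a membrane protein gene used to tell microglia from other macrophages, was at 0 in 1 dependent and in 1 non-dependent library and reached 4.32 and 2.79 CPM. Cx3cr1, the fractalkine receptor gene, ran from 1.53 to 10.6 CPM and from 0.525 to 4.96 CPM. Aif1, which encodes IBA1, was at 0 in 2 of 9 dependent and 3 of 9 non-dependent libraries and reached 1.43 and 1.56 CPM. On control chow it was low too, at 1.36 to 4.40 CPM in dependent and 0.546 to 3.46 CPM in non-dependent mice. Its ranges on the 2 diets therefore overlapped. The 22 homeostatic microglia genes summed to 36.2, 51.7 and 127.2 CPM (lowest, median and highest library) in dependent mice and to 44.6, 51.6 and 75.9 CPM in non-dependent mice. On control chow the lowest sums were 450.6 CPM in dependent and 461.2 CPM in non-dependent mice, so no PLX5622 library came near a control-chow one. In bulk tissue, fewer cells of a type and less RNA per cell cannot be told apart.

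The tissue label also held. Slc17a7, the vesicular glutamate transporter gene of cortical excitatory neurons, had a median of 274.2 CPM in dependent and 273.6 CPM in non-dependent libraries. Ttr, the transthyretin gene that marks choroid plexus, was at 0 in 8 of 9 dependent and 6 of 9 non-dependent libraries. Striatal neuron genes stood out in a few libraries. The 14 genes of that list summed to 798.5, 1009 and 2509 CPM in dependent mice and to 829.5, 869.5 and 1472 CPM in non-dependent mice. The high libraries were those of dependent mice 38 (2509 CPM) and 6 (1964 CPM) and of non-dependent mouse 22 (1472 CPM). Fits without the libraries high in striatal genes left out only these libraries of PLX5622 chow. The highest dependent library on control chow, at 1626 CPM, stayed in. Drd2, the dopamine D2 receptor gene of one class of striatal projection neurons, was at 0 in 2 of 9 libraries of each group and reached 19.4 CPM in dependent and 6.81 CPM in non-dependent mice. Where leaving out such a library moved a gene named at an unadjusted p under 0.05 by over 1.5 times, the value without it is given too.

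**Figure D1:**
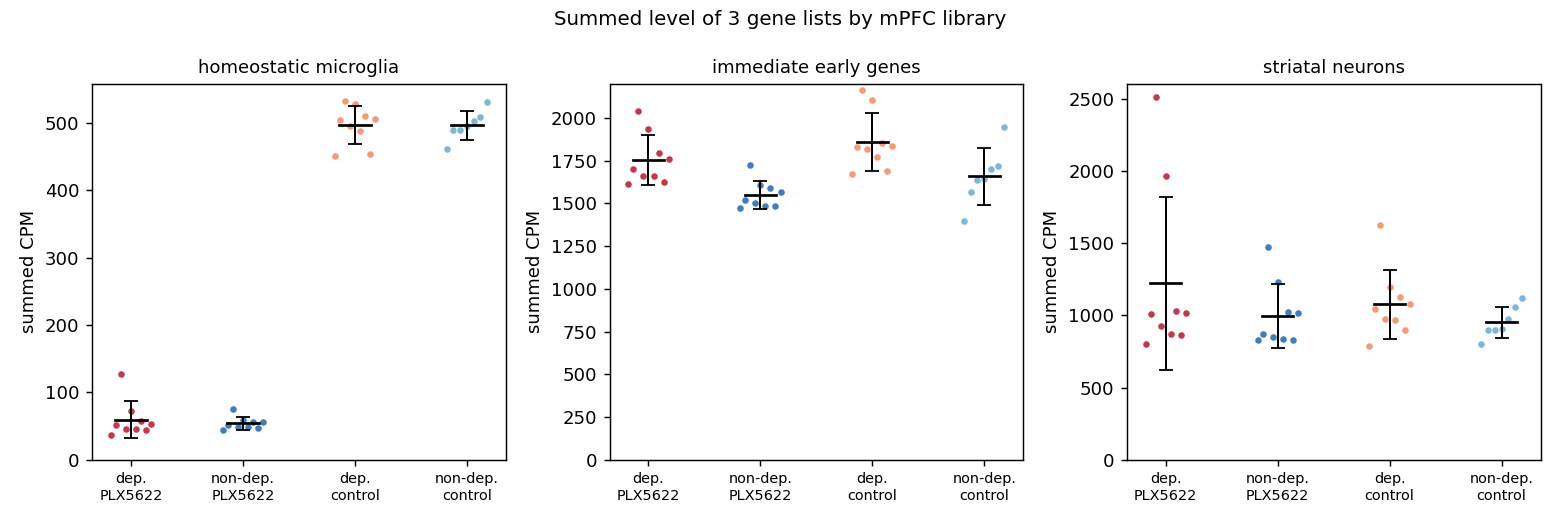
Summed CPM (y axes) of the homeostatic microglia, immediate early and striatal neuron lists in each mPFC library, by group (x axes); points are libraries, the wide line is the mean and the bars are the SD. Microglia genes are near the floor in both PLX5622 groups, immediate early genes of dependent libraries run from 1615 to 2041 CPM against 1475 to 1726 CPM in non-dependent ones, and 2 dependent libraries hold striatal sums of 1964 and 2509 CPM.

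Depth was 1786107 to 2522222 counts in genes in dependent and 1531574 to 2607438 in non-dependent libraries, and 17394 to 18317 and 17022 to 18093 genes had a count. In 3 of the 9 dependent libraries (mice 37, 38 and 39) synthetic spike-in RNA made up 1.02% to 1.20% of the counts in genes and spike-in entries together. The other 15 libraries held 69 spike-in counts or fewer. None of 6 library measures separated the groups in exact two-sided permutation tests, with an adjusted p of 0.559 for each. Mitochondrially encoded genes, for example, took 4.00 ± 0.12% of counts in dependent and 4.16 ± 0.35% in non-dependent libraries (SD, n = 9 each). Genes spanning 100 kb or more took 39.8 ± 0.91% in dependent and 39.5 ± 0.92% in non-dependent libraries (SD, n = 9 each).

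The first question was which genes differ in mPFC between dependent and non-dependent mice when microglia are depleted. No gene passed the test: edgeR's quasi-likelihood F test with Benjamini-Hochberg adjustment called 0 of 12331 genes (0%) at an adjusted p under 0.05, and the smallest adjusted p was 0.126. DESeq2 also called 0. The count was 8 with no filter on low counts (26114 genes tested), 1 without the 3 dependent libraries that hold spike-in RNA and those on control chow (Sstr2, a somatostatin receptor gene), 2 without non-dependent mouse 21 (Apln and Hrk), and 1 each without non-dependent mouse 16 (Apln) and dependent mouse 8 (Rasl11b). At an unadjusted p under 0.05 there were 728 genes in edgeR, 5.9% of those tested, and 599 in DESeq2. Of the 728, 386 (3.13% of all tested) were higher and 342 (2.77%) lower in dependent mice. The differences were small, with a median absolute log2 fold change of 0.067 over all genes and 0.22 over the 728. In counts simulated from these libraries over 12220 genes, the same comparison recovered 44% of 1.25-fold, 78% of 1.5-fold and 98% of 2-fold changes. The simulated set held 200 changed genes. With fewer, the adjusted threshold lies lower and recovery can fall. Each gene was drawn on its own, so shifts that many genes of 1 library share were not simulated. Recovery in the real libraries can therefore be lower. No gene tested had dependent and non-dependent libraries that were fully apart. The genes named for this comparison are therefore given as values that did not pass, with log2 fold changes of dependent over non-dependent mice and their standard errors.

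Hrk led the genes that were higher in dependent mice. It encodes Harakiri, a BH3-only protein that binds BCL2 and BCL-XL and promotes apoptosis in neurons deprived of trophic support (chromosome 5, 118164648 to 118189478, plus strand, GRCm38). Hrk had 41.9, 52.6 and 61.8 CPM in dependent libraries and 34.6, 41.3 and 47.4 CPM in non-dependent libraries (lowest, median, highest). The ranges overlapped, yet all 9 dependent libraries lay above the non-dependent median. The log2 fold change was 0.38 ± 0.082 (SE; edgeR adjusted p = 0.126). The other 11 tested members of the BCL2 family did not share it: 3 lay above 0 and 8 below, none at an unadjusted p under 0.05, with Mcl1, a pro-survival member, at 0.0054 ± 0.059 and Bcl2l1, which encodes BCL-XL, at -0.011 ± 0.068 on the log2 scale.

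Rasl11b, a small GTPase-like gene (chromosome 5, 74195286 to 74199481), came next. Its levels were 58.0, 73.8 and 89.9 CPM in dependent and 45.7, 58.0 and 73.2 CPM in non-dependent libraries, with a log2 fold change of 0.39 ± 0.086 (edgeR adjusted p = 0.126). Egr4, a zinc finger transcription factor of the early growth response family (chromosome 6, 85511121 to 85513589), had 47.9, 54.6 and 62.7 CPM in dependent and 35.2, 46.2 and 50.4 CPM in non-dependent libraries. Its log2 fold change was 0.30 ± 0.072 (edgeR adjusted p = 0.173), and 8 of 9 dependent libraries lay above every non-dependent one. Pmepa1, a transmembrane inhibitor of TGF-beta and androgen signalling (chromosome 2, 173224458 to 173276533), averaged 106.5 ± 12.3 CPM in dependent and 90.6 ± 7.70 CPM in non-dependent libraries (SD, n = 9 each), a log2 fold change of 0.23 ± 0.058.

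A pair of further genes in this direction overlap a gene on the other strand, and the sources used here do not say whether counting used strand, so their reads could belong to either. Plcxd2, which encodes a phospholipase C-like protein, overlaps Gm15638 (chromosome 16, 45959263 to 46010218). It had 98.2, 110.4 and 122.8 CPM in dependent and 65.6, 95.9 and 110.1 CPM in non-dependent libraries, a log2 fold change of 0.27 ± 0.066. The noncoding transcript 4930598N05Rik overlaps Gm31904 and had 9.02, 14.4 and 16.6 CPM in dependent and 4.02, 8.31 and 11.9 CPM in non-dependent libraries. Its log2 fold change of 0.74 ± 0.18 was the largest among the 6 higher genes named, at the lowest level.

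Among the genes lower in dependent mice, Apln had the smallest p. It encodes apelin, a peptide ligand of the APJ receptor that endothelial tip cells and neurons secrete (chromosome X, 48025146 to 48034853). Apln had 6.35, 10.7 and 16.6 CPM in dependent and 8.51, 20.2 and 24.7 CPM in non-dependent libraries. All 9 dependent libraries lay below the non-dependent median, and 2 non-dependent libraries lay within the dependent range. The log2 fold change was -0.73 ± 0.16 (edgeR adjusted p = 0.126). Vegfa, the vascular endothelial growth factor gene (chromosome 17, 46016993 to 46032369), had 34.7, 43.3 and 51.8 CPM in dependent and 45.7, 49.8 and 60.7 CPM in non-dependent libraries, a log2 fold change of -0.30 ± 0.082 (edgeR adjusted p = 0.446).

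Cacna1g encodes the T-type calcium channel Cav3.1, which sets burst firing in thalamic and some cortical neurons (chromosome 11, 94408391 to 94474198). It had 33.0, 37.4 and 42.4 CPM in dependent and 39.7, 48.3 and 58.0 CPM in non-dependent libraries. The 2 groups met only in a short range from 39.7 to 42.4 CPM, and the log2 fold change was -0.37 ± 0.083 (edgeR adjusted p = 0.126). It was the only one of 15 tested calcium channel genes at an unadjusted p under 0.05, and the other 14 lay on both sides of 0 (7 above). Srsf3 encodes an SR protein that binds exonic enhancers and guides splicing (chromosome 17, 29032628 to 29043373). Srsf3 had 120.3, 139.7 and 153.1 CPM in dependent and 136.6, 171.2 and 180.5 CPM in non-dependent libraries, a log2 fold change of -0.25 ± 0.062 (edgeR adjusted p = 0.216). Of the 17 splicing factor genes tested, Hnrnpa1 (-0.25 ± 0.11) was also lower and Rsrp1 (0.14 ± 0.057) higher at an unadjusted p under 0.05. The remaining 14 had log2 fold changes from -0.089 (Srsf6) to 0.052 (Srsf11).

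Cygb encodes cytoglobin, an oxygen-binding globin of fibroblasts and some interneurons. It overlaps Prcd on the other strand, and had 31.8, 41.8 and 45.7 CPM in dependent and 42.0, 49.3 and 57.3 CPM in non-dependent libraries, a log2 fold change of -0.28 ± 0.071. The transcript A430035B10Rik overlaps Gm45062 and Glcci1 on the other strand. It had 3.33, 4.58 and 7.14 CPM in dependent and 4.96, 8.39 and 15.4 CPM in non-dependent libraries, a log2 fold change of -0.82 ± 0.19.

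**Figure D2:**
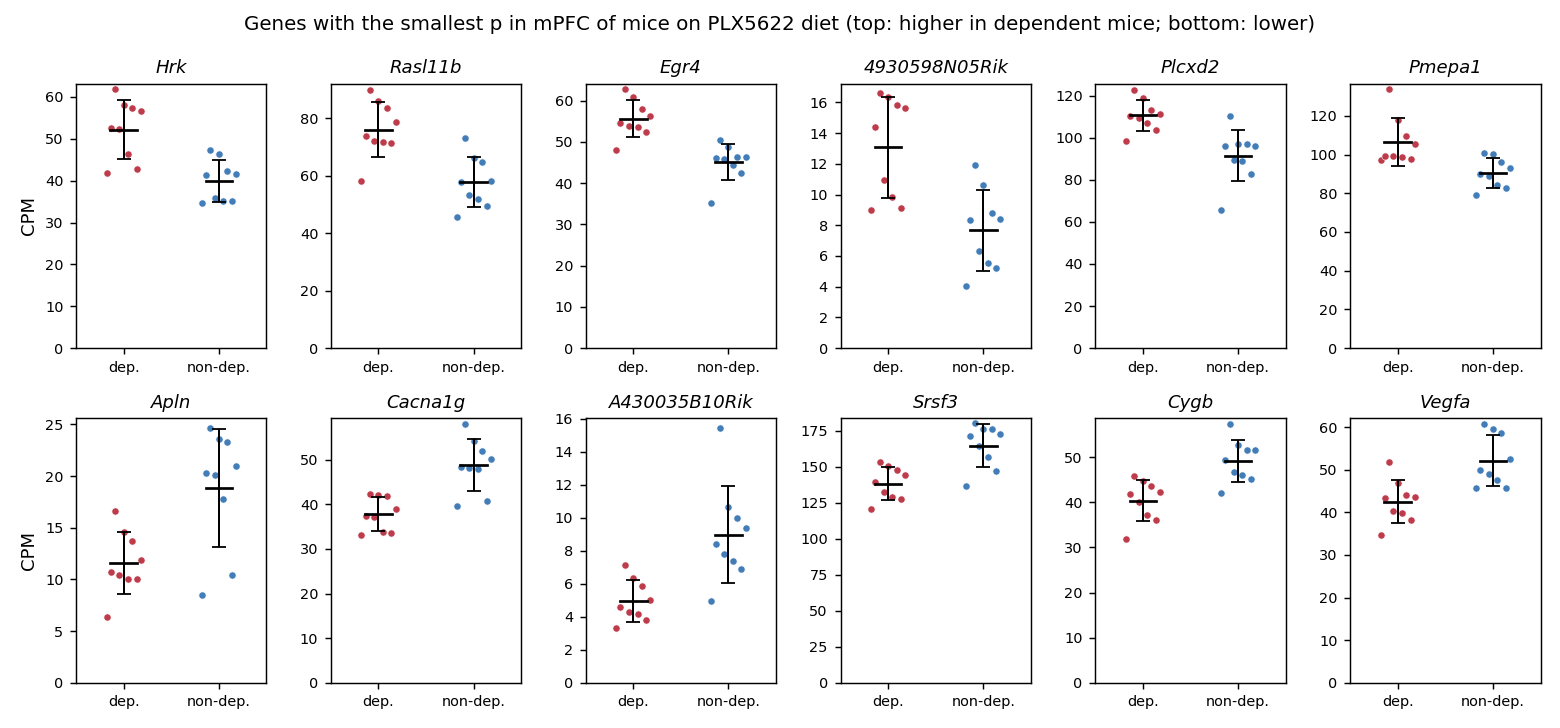
CPM (y axes, from 0) in each PLX5622 mPFC library of dependent (left) and non-dependent (right) mice for the 6 genes with the smallest p in each direction; points are libraries, the wide line is the mean and the bars are the SD (n = 9 each). The groups shift against each other and overlap in every panel, and no gene reached an adjusted p under 0.05.

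None of the immediate early genes passed the adjusted threshold either, and most lay above 0. Of the 27 tested, 24 had a log2 fold change above 0, and 13 were higher and 0 lower at an unadjusted p under 0.05, against 3.13% and 2.77% of all genes tested. Their median log2 fold change was 0.19, against 0.0015 over all genes. Summed over the 29 listed genes found in the files, they took 1615, 1699 and 2041 CPM in dependent libraries and 1475, 1519 and 1726 CPM in non-dependent libraries (lowest, median, highest). The 2 ranges overlapped from 1615 to 1726 CPM. Without the 3 libraries high in striatal genes, 23 of 27 lay above 0 with a median of 0.18, and 8 rather than 13 were at an unadjusted p under 0.05. Leaving out single libraries gave 9 (without dependent mouse 7) to 16 (without non-dependent mouse 45) at that threshold, and leaving out the 3 spike-in libraries gave 11 with a median of 0.30.

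Transcription factors of the list included Nr4a1, an orphan nuclear receptor gene, with 39.4, 61.2 and 75.2 CPM in dependent and 30.1, 45.2 and 57.1 CPM in non-dependent libraries. Its log2 fold change was 0.47 ± 0.13 (edgeR adjusted p = 0.446), and 8 of 9 dependent libraries lay above the non-dependent median. Fos, which forms the AP-1 complex with Jun proteins and is the standard marker of recent neuronal activity, had 22.3, 44.1 and 57.6 CPM in dependent and 15.7, 24.2 and 60.8 CPM in non-dependent libraries. The highest Fos value of all 18 libraries was that of a non-dependent mouse, and the log2 fold change was 0.53 ± 0.21 (edgeR adjusted p = 0.728). Jun, the partner of Fos, had 26.9, 30.9 and 38.1 CPM in dependent and 21.3, 26.1 and 35.8 CPM in non-dependent libraries, a log2 fold change of 0.27 ± 0.093, and overlaps Junos on the other strand. Egr1, the best known early growth response gene, lay at 0.18 ± 0.076, while its relative Egr3 lay below 0 at -0.14 ± 0.098.

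Other members of the list have roles at synapses or in feedback on signalling. Arc, a cytoskeletal gene that controls the removal of AMPA receptors from synapses, had 72.6, 109.8 and 157.7 CPM in dependent and 44.9, 84.0 and 108.5 CPM in non-dependent libraries. Only 6 of 9 dependent libraries lay above the non-dependent median, and the log2 fold change was 0.41 ± 0.18 (edgeR adjusted p = 0.786). Homer1, a postsynaptic scaffold of metabotropic glutamate receptors, had 369.2, 399.7 and 443.4 CPM in dependent and 340.3, 368.9 and 397.1 CPM in non-dependent libraries. Its log2 fold change of 0.13 ± 0.051 was small, with all 9 dependent libraries above the non-dependent median. The dual-specificity phosphatases that switch off MAP kinases lay at 0.36 ± 0.17 (Dusp1), 0.32 ± 0.14 (Dusp5) and 0.25 ± 0.085 (Dusp6). Sik1, a salt-inducible kinase that holds back CREB coactivators, had 6.56, 8.66 and 10.4 CPM in dependent and 3.72, 5.25 and 8.01 CPM in non-dependent libraries, a log2 fold change of 0.55 ± 0.21. Btg2, an antiproliferative gene, lay at 0.63 ± 0.22 and Ier2 at 0.44 ± 0.17, which was 0.23 without the 3 libraries high in striatal genes. Bdnf, the neurotrophin gene with activity-dependent promoters, lay at 0.019 ± 0.091 and Npas4, which responds to calcium entry, at 0.37 ± 0.23, neither at an unadjusted p under 0.05.

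The promoters of these genes were read from the RefSeq windows of 250 bases before to 50 after the start (GRCm38.p6), because CREB and SRF sites near the start are the textbook route to their induction. Windows were found for 21 of the 27 genes. Egr1, Egr3, Arc, Ier2, Nptx2 and Sik1 had none and were not searched. The full cyclic AMP response element TGACGTCA, which reads the same on both strands, was in 2 of 21, those of Btg2 and Dusp1, against 3.78% of the 9341 tested genes with a window and 2.03% of all 27025 windows. The CArG box to which SRF binds, searched on both strands, was in 1 of 21 (Dusp5), against 1.52% of tested genes. None of the 8 windows found for the 12 genes of smallest p held either motif. The 30 bases around each full element, on the minus strand with the element in capitals, lie at chr1:134079303-134079332 (Btg2) and chr17:26508597-26508626 (Dusp1). They are shown as the only such matches among the 21 genes with a window:
Btg2: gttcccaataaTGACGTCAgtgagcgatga
Dusp1: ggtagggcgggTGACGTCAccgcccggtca
Btg2 had 12.6, 22.3 and 38.4 CPM in dependent and 10.5, 15.9 and 28.0 CPM in non-dependent libraries, and Dusp1 36.8, 55.7 and 64.7 CPM in dependent and 18.4, 40.8 and 58.2 CPM in non-dependent libraries. A match is a description of the letters in the window and not of a bound site.

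**Figure D3:**
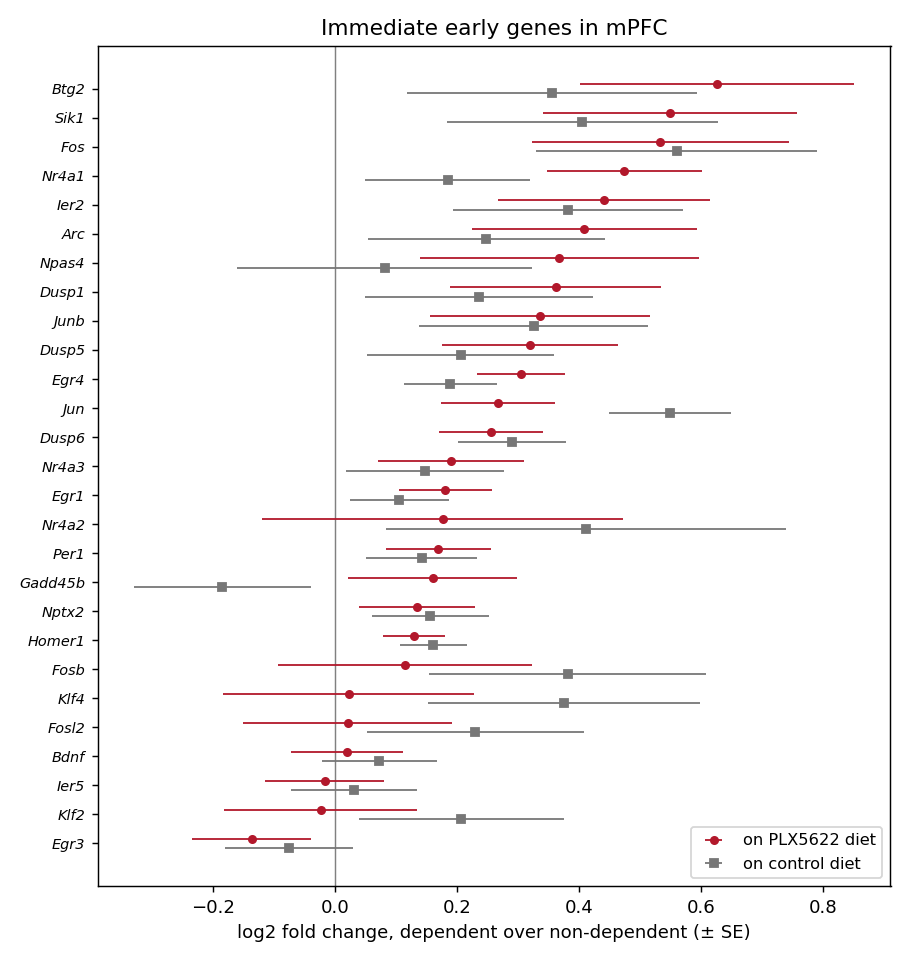
Log2 fold change of dependent over non-dependent mice (x axis, ± SE) for the 27 immediate early genes tested in mPFC (y axis), on PLX5622 chow (red circles) and on control chow (grey squares). On PLX5622 chow 24 of 27 lie above 0, from Btg2 at 0.63 to Egr3 at -0.14, and the medians on the 2 diets are 0.19 and 0.21.

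Genes of stress and opioid signalling followed in the number of members at an unadjusted p under 0.05. Of 22 tested, 5 were higher and 1 lower, against 3.13% and 2.77% of all genes tested. The count for this list was not repeated with libraries left out. Pdyn, which encodes the dynorphin precursor, had 22.4, 28.5 and 108.8 CPM in dependent and 18.2, 27.5 and 38.0 CPM in non-dependent libraries, a log2 fold change of 0.57 ± 0.24. Tac1, the substance P precursor gene, had 8.16, 23.8 and 126.2 CPM in dependent and 11.0, 17.6 and 34.6 CPM in non-dependent libraries, a log2 fold change of 0.89 ± 0.40. Both peaked in the library of mouse 38, which also had the highest striatal sum. Without that library the log2 fold changes were 0.18 for Pdyn and 0.29 for Tac1. The striatal list as a whole lay above 0 in 12 of 12 tested members with a median of 0.56, and in 5 of 12 with a median of -0.029 once the 3 libraries high in striatal genes were left out.

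Oprm1, the mu opioid receptor gene, which overlaps Ipcef1 and Gm10945 on the other strand, had 12.3, 18.05 and 39.4 CPM in dependent and 8.81, 13.8 and 21.3 CPM in non-dependent libraries, a log2 fold change of 0.41 ± 0.18 (edgeR adjusted p = 0.786). Its highest value was also that of mouse 38, and the log2 fold change was 0.21 without that library and 0.12 without the 3 libraries high in striatal genes. Adcyap1, which encodes the stress peptide PACAP, lay at 0.26 ± 0.12 and Crhbp, the binding protein of corticotropin-releasing hormone, at 0.17 ± 0.073, and without mouse 38 at 0.29 and 0.16. Npy, the neuropeptide Y gene of a class of interneurons, ran the other way. It had 18.7, 24.6 and 32.6 CPM in dependent and 25.9, 28.9 and 36.3 CPM in non-dependent libraries, a log2 fold change of -0.23 ± 0.094, with 6 of 9 dependent libraries below the non-dependent median.

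No receptor on which ethanol is known to act passed the test. None of 12 tested GABA-A receptor subunit genes was at an unadjusted p under 0.05, with log2 fold changes from -0.12 (Gabra3) to 0.17 (Gabrg1). Nor was any of 7 genes of the NMDA receptor list, from -0.065 (Grina) to 0.10 (Grin2d). Grina does not encode a subunit of the receptor. Of 15 AMPA and kainate receptor genes, 2 were higher at that threshold. Cnih3, an auxiliary subunit that slows AMPA receptor gating, had 86.4, 108.5 and 125.2 CPM in dependent and 62.3, 91.8 and 112.7 CPM in non-dependent libraries, a log2 fold change of 0.24 ± 0.071. Gria2, the subunit that blocks calcium entry, lay at 0.078 ± 0.036. Of 21 monoamine and acetylcholine receptor genes, the 2 at that threshold were Adra2c (0.22 ± 0.10) and Htr2c (0.51 ± 0.23). Htr2c, a serotonin receptor gene, reached 97.4 CPM in 1 dependent library, and its log2 fold change was 0.32 without the library of mouse 38. Adra2c, an adrenergic receptor gene, was highest in the libraries of dependent mice 6 and 38 and non-dependent mouse 22, those high in striatal genes, and lay at 0.16 without mouse 38 and at 0.12 with the striatal sum as a covariate. Kcnj9, which encodes the GIRK3 subunit of a potassium channel that ethanol opens, lay at -0.14 ± 0.058, the only one of 11 potassium channel genes at the threshold.

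Among the remaining neuronal lists, the neurotrophin list had 2 of 5 tested genes higher, Vgf (0.17 ± 0.057), a secreted peptide precursor induced by BDNF, and Ntrk2 (0.079 ± 0.037), the BDNF receptor gene. Synaptic scaffold and vesicle genes had 0 higher and 2 lower of 25, among them Stx1a (-0.13 ± 0.064), a gene of the vesicle fusion machinery, which lay at -0.080 without mouse 38. Cortical excitatory neuron genes had none of 21 at an unadjusted p under 0.05, and interneuron genes 1 higher and 1 lower of 20. Respiratory chain and ethanol metabolism genes had none of 24 and none of 21.

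No glial, vascular or immune gene listed passed the test either. None of 17 astrocyte genes was at an unadjusted p under 0.05, and their median log2 fold change was -0.0041. Of 17 oligodendrocyte and myelin genes, Mobp, a myelin protein gene, was the 1 that was higher (0.42 ± 0.17), and it lay at 0.28 without mouse 38, whose library had 86.0 CPM. Endothelial and mural genes lay mostly below 0, with 4 of 17 above, and a median of -0.089. At an unadjusted p under 0.05 the pericyte gene Rgs5 was lower (-0.23 ± 0.079) and Cspg4, a proteoglycan gene of pericytes and oligodendrocyte precursors that is in both lists, was higher (0.39 ± 0.18). On control chow the median of that list was 0.11, and the difference between the diets was not tested for the list. The interferon response list had 1 higher, Ifi27 (0.30 ± 0.11), and 1 lower, Irf3 (-0.38 ± 0.18), of 9 tested. None of 14 Toll-like, interleukin and TNF signalling genes and none of 5 MHC class I genes was at that threshold. Of 19 homeostatic microglia genes tested, 13 lay above 0 with a median of 0.23, none at an unadjusted p under 0.05. That direction rested on dependent mouse 30: without its library 4 of 19 lay above 0 with a median of -0.18, and 2 were lower at the threshold. Without the spike-in libraries 14 lay above 0 with a median of 0.49, and 2 were higher. Csf1r lay at 0.23 ± 0.43 with mouse 30 and -0.13 without it. Most of the 19 genes passed the count filter only through the control-chow libraries of the same fit. With only the 2 PLX5622 groups fitted, 2 of them were tested. The counts and medians of this list therefore describe values near the floor.

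The lists of stress response genes did not share a direction. Of 25 heat shock and ER stress genes, 8 lay above 0 and the median was -0.068, against 0.021 on control chow. Over all genes tested, 3.13% were higher and 2.77% lower at an unadjusted p under 0.05. Of the 25, 0 were higher and 2 lower at that threshold. These were Hspe1 (-0.32 ± 0.14), the mitochondrial co-chaperonin gene, and Herpud1 (-0.18 ± 0.075), which acts in ER-associated degradation. Hspe1 had 9.69, 13.3 and 15.5 CPM in dependent and 7.16, 16.0 and 20.7 CPM in non-dependent libraries, and the lowest value of all was that of a non-dependent mouse. Of 22 glucocorticoid response genes, 15 lay above 0 with a median of 0.11. Mt2, a metallothionein gene that glucocorticoids and zinc induce, had 65.8, 100.5 and 128.7 CPM in dependent and 57.6, 77.2 and 90.5 CPM in non-dependent libraries, a log2 fold change of 0.36 ± 0.13. The 23 mitochondrially encoded genes had a median of -0.063, with 4 lower and 0 higher at the unadjusted threshold.

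**Figure D4:**
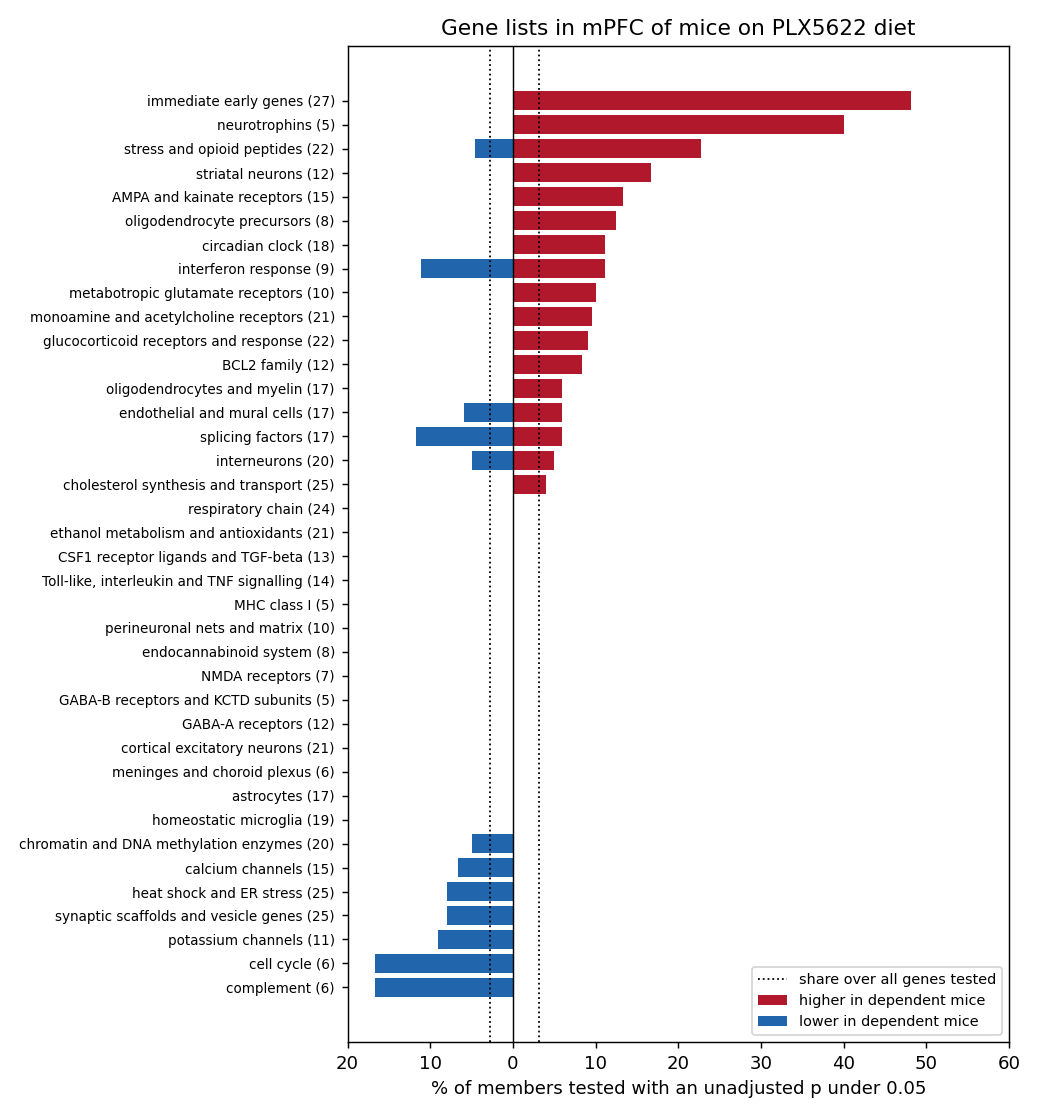
Share of the tested members of 38 gene lists (y axis, number tested in brackets) with an unadjusted p under 0.05 (x axis, %), higher in dependent mice to the right and lower to the left; dotted lines mark the shares over all 12331 genes, 3.13% higher and 2.77% lower. Immediate early genes have the longest bar, 13 of 27, and 14 lists have no member at the threshold. Short lists move in large steps, and the lists were chosen with earlier results of these data known.

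The next question was whether dependence acts differently with microglia present. The test of the difference between the diets called 0 of 12331 genes (0%; smallest edgeR adjusted p = 0.616), with 354 (2.87%) at an unadjusted p under 0.05, and DESeq2 called 0. The smallest p was that of Cog7, a subunit of the Golgi tethering complex, at -0.18 on PLX5622 and 0.34 on control chow, a difference of -0.52 ± 0.12. Acta2, the smooth muscle actin gene of arterioles, lay at -0.55 and 0.88, a difference of -1.43 ± 0.42, and H2-T23, a nonclassical MHC class I gene, at -0.27 and 0.76. Gla, the lysosomal alpha-galactosidase gene, and its neighbour Hnrnph2 on chromosome X lay at 0.58 and 0.55 on PLX5622 and at -0.45 and -0.35 on control chow. Apln, at -0.73 on PLX5622, lay at -0.081 on control chow, and that difference of -0.64 ± 0.24 did not pass either (edgeR adjusted p = 1).

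On control chow 1 of 12331 genes was called (0.00811%), Jun, with a log2 fold change of 0.55 ± 0.10, and 726 (5.89%) were at an unadjusted p under 0.05. No gene was called without the spike-in libraries (smallest edgeR adjusted p = 0.0712), nor without any 1 of the control-chow non-dependent mice 19, 20, 34 and 35 or dependent mouse 26. The 2 comparisons share no library. On each diet 3 of the 9 dependent libraries and 0 of the non-dependent ones hold spike-in RNA, so it lies on the dependent side of both. Its part in the shared signs was not tested. Of all genes, 57.8% had the same sign on both diets, and of the 728 genes at an unadjusted p under 0.05 on PLX5622 chow 537 (73.8%) did. Across genes, which are not independent replicates, Pearson's r was 0.225 and Spearman's rho 0.197. Of the 12 genes of smallest p, Hrk (0.36), Plcxd2 (0.25), Pmepa1 (0.19), Srsf3 (-0.30) and Cygb (-0.25) had values on control chow within 0.1 of those on PLX5622 chow.

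After these values were seen, the mean of the dependence effects on the 2 diets was tested in the same fit. This mean called 27 of 12331 genes (0.219%), 19 higher (0.154%) and 8 lower (0.0649%) in dependent mice. Of the 27, 19 were called without the spike-in libraries and 15 with spike-in as a covariate. The calls of Ppp1r9b and Adgrg1 were lost in 22 of 44 alternatives, those of Hs3st2 and 4833422C13Rik in 20, and that of Ripor2 in 6. Hrk rose by 0.37 ± 0.060 on the log2 scale (edgeR adjusted p = 0.000637) and Jun by 0.41 ± 0.068 (edgeR adjusted p = 0.000925). Egr4 (0.25 ± 0.052, edgeR adjusted p = 0.0169) and Dusp6 (0.27 ± 0.061, edgeR adjusted p = 0.0271) were the other immediate early genes among the 27. Dusp6 lost its call in 9 of 44 alternatives, with adjusted p up to 0.100. Of these, 7 left out 1 library, that of control-chow non-dependent mouse 20, 34, 35 or 36, control-chow dependent mouse 10, PLX5622 non-dependent mouse 23 or PLX5622 dependent mouse 7. Hrk, Jun and Egr4 kept theirs in all 44. Srsf3 fell by 0.28 (SE 0.046, edgeR adjusted p = 0.000925), and so did Cygb by 0.27 (SE 0.052) and Tfrc, the transferrin receptor gene, by 0.25 (SE 0.053). Kcns1, a modulatory potassium channel subunit of interneurons and sensory neurons, fell by 0.35 (SE 0.078), a call lost in 6 of 44 alternatives with adjusted p up to 0.108: without the spike-in or the striatal-high libraries, with either as a covariate, and without control-chow non-dependent mouse 19 or PLX5622 non-dependent mouse 23. Tfrc lost its call in 1, without the striatal-high libraries (adjusted p = 0.050). The striatal-high libraries left out were of PLX5622 chow only, and a control-chow dependent library with a striatal sum of 1626 CPM stayed in.

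Other genes that rose in the mean of both diets were Gbp7, an interferon-induced GTPase gene (0.68 ± 0.15), Dleu7 (0.51 ± 0.095), which overlaps Rnaseh2b on the other strand, Pmepa1 (0.21 ± 0.041), Rasl11b (0.33 ± 0.064) and the microtubule kinase gene Dclk1 (0.11 ± 0.025). Rasl11b lost its call in 2 of 44 alternatives, those that left out the spike-in libraries or had spike-in as a covariate, with adjusted p up to 0.0708. Dclk1 lost its call in 4, with spike-in or the striatal sum as a covariate and without control-chow non-dependent mouse 34 or 35, with adjusted p up to 0.0679. Gbp7 had 6.78, 9.42 and 14.3 CPM in dependent and 4.25, 6.75 and 8.04 CPM in non-dependent PLX5622 libraries. Dclk1 had 1030, 1123 and 1155 CPM in dependent and 966.4, 1017 and 1073 CPM in non-dependent ones, a shift that is small beside its level. Tfrc, the receptor for iron-laden transferrin, had 80.4, 94.3 and 111.8 CPM in dependent and 83.9, 112.4 and 135.1 CPM in non-dependent PLX5622 libraries.

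**Figure D5:**
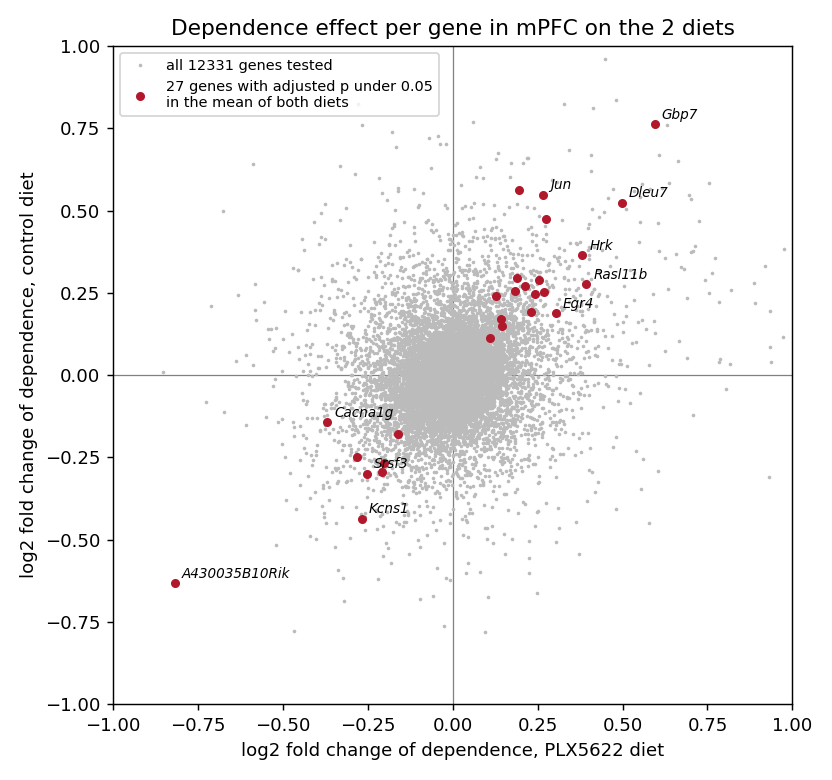
Log2 fold change of dependent over non-dependent mice in mPFC on PLX5622 chow (x axis) and on control chow (y axis) for each of 12331 genes (grey); red points are the 27 genes with an adjusted p under 0.05 in the mean of both diets, and 8 genes fall outside the axes. The red points lie in the upper right (19) and lower left (8), a placement that their selection on the mean of both axes favours.

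The same contrast was set beside that in the CeA, where dissection and sequencing instrument also differ. The test of the difference between the regions called 0 of 13035 genes (0%; smallest edgeR adjusted p = 0.898), with 602 (4.62%) at an unadjusted p under 0.05. In CeA 3 of 13035 genes were called (0.023%). Rsrp1, a splicing-related gene, rose by 0.54 ± 0.10, against 0.14 ± 0.057 in mPFC, and the sugar transporter gene Slc2a13 rose by 0.49 ± 0.10, while the noncoding RNA Ftx fell by 0.49 (SE 0.10). These CeA calls rest on 4 libraries a group: without dependent mouse 6 or non-dependent mouse 47 the count was 0, without dependent mouse 7 it was 7, and without dependent mouse 8 or 29 it was 2. Leaving out non-dependent mouse 13, 23 or 46 gave 1, Rsrp1. Of the 4 dependent CeA libraries 3 hold spike-in RNA, so the comparison without them has 1 dependent library and is no check of these calls. Some immediate early genes had larger values in CeA, though no difference between the regions passed the test, with Arc at 1.30 ± 0.47, Fos at 1.15 ± 0.37 and Btg2 at 1.02 ± 0.44 in CeA against 0.41, 0.53 and 0.63 in mPFC. Sik1 lay at -0.015 ± 0.35 there, and Jun at 0.12 ± 0.16. The 8 CeA mice carry numbers that are also in the PLX5622 mPFC groups, so the regions are partly from the same animals.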

How the data were processed

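Used were the counts the authors deposited, raw whole reads for each Ensembl gene of each library, from a method that favours RNA 3' ends. The submitters' processing notes name mm10 (GRCm38.p6), Bowtie2 2.3.4.3, HTSeq 0.11.0, R 3.5.1, FastQC 0.11.8 and DESeq2 1.10.1. The sources used here do not give the order, settings or use of strand. Reads on genes that overlap on opposite strands can therefore not be told apart. Spike-in entries (92) and 5 summary rows stayed out of library sizes; the share of reads assigned to a gene ranged between 74.3% and 75.5% over the 18 libraries, and GENCODE vM21 gave symbols to 53706 of 54547 gene identifiers.

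edgeR 4.0.16 (R 4.3.3) fitted all 34 mPFC libraries with 1 coefficient a group (TMM, filterByExpr with minimum count 10 and minimum total 15, robust, quasi-likelihood F test, two-sided), and all 53 libraries for CeA. Calls are at a Benjamini-Hochberg adjusted p under 0.05. SE is log2 fold change divided by the root of F, and CPM uses TMM sizes. Alternatives used DESeq2 1.42.0, limma 3.58.1 (voom) and sva 3.50.0, other filters and scalings, covariates, and left-out libraries. The fit was tested on simulated data.

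Named were the 6 genes of smallest p each way, up to 2 of each list, microglial markers and up to 6 each way per interaction; other genes are named as examples, or where an alternative called them, chosen after their values were seen. The members and the 40 gene lists were chosen with earlier results of these data known, some lists around genes those results had named. Mouse numbers pair libraries between regions only, and number 16, on different diets in the 2 regions, was not paired. Libraries of a group differed beyond counting noise (chi-square per gene 1.20 to 4.70 over 72 pairs), so none was merged.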

Additional observations from a re-analysis of the deposited data

Results flagged for a closer look

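Among 68 measures (genes, lists and library measures) checked in each of the 2 groups of 9 PLX5622 libraries, 11 of the checks found a library far from the other 8 (gap over range above 0.493). Chance alone flags about 1 in 20 groups, and genes of 1 library are not independent.

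The library of dependent mouse 38 was high in Pdyn (108.8 CPM, next 44.0), Tac1 (126.2 CPM, next 53.8), Oprm1 (39.4 CPM, next 25.2) and Mobp (86.0 CPM, next 60.4). This library holds spike-in RNA and the highest striatal sum, 2509 CPM. The part of either in these values was not tested beyond leaving the library out.

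The library of dependent mouse 30 was high in microglial genes, with 10.6 CPM of Cx3cr1 (next 5.10), 4.32 CPM of Tmem119 (next 1.82) and a list sum of 127.2 CPM (next 72.6). The list sum of non-dependent mouse 13 was also high within its group, at 75.9 CPM (next 58.7). Both stay below the lowest control-chow sum of 450.6 CPM.

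Ciart, a repressor gene of the circadian clock, was high in dependent mouse 40 (36.2 CPM, next 27.5). Adra2c was high in non-dependent mouse 22 (47.7 CPM, next 36.3), and Cnih3 was low in non-dependent mouse 21 (62.3 CPM, next 89.3).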

How the results depend on the processing

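The count of genes called for dependence on PLX5622 chow was 0 in 9 alternatives, 8 with no filter on low counts (26114 genes; 4930598N05Rik, Apln, Cacna1g, Ccnd1, Hrk, Plcxd2, Rasl11b and Srsf3), 1 without the spike-in libraries (Sstr2), and 0 to 2 with single libraries left out (Apln and Hrk without non-dependent mouse 21, Apln without 16, Rasl11b without dependent mouse 8). On control chow it was 10 with no filter, 0 without the spike-in libraries, 2 with 1 surrogate variable, and 0 to 2 without single libraries. The mean of both diets gave 59 calls with no filter, 19 to 37 in the other alternatives and 20 to 31 without single libraries; 19 of the 27 were called without the spike-in libraries and 15 with spike-in as a covariate. The CeA count ranged from 0 to 7 without single libraries. The interaction with diet stayed at 0 in every alternative run. The interaction with region called 0 in all, of which the one without the spike-in libraries keeps 1 dependent CeA library on PLX5622 chow and says nothing of stability; pairing the mice found in both regions (replicate block) also gave 0, with 613 genes at an unadjusted p under 0.05 against 532 over the same libraries without the block. No numbers are shared between groups within mPFC. P2ry12 turned to -0.056 without the libraries high in striatal genes and ranged from -0.12 to 0.31 without single libraries, and Csf1r from -0.13 to 0.42. The cause was not tested. The difference in reads in genes turned from -0.214 to 0.0311 percentage points without the spike-in libraries. Spike-in counts are part of the total of which this share is taken, so their presence lowers it by construction. All 12 genes of smallest p kept their sign in 29 alternatives, which their choice by p in these same libraries favours. Depth limits genes at a few CPM, where 1531574 to 2607438 counts a library leave few reads each.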
